A study of Mus musculus with 6 samples.

Results

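The genes described here act in G2 and mitosis, the last stages of the cell cycle. They are a list of 54 genes known for roles in cell division, chosen by name, with earlier results of these data already known. The genes were found by symbol in a deposited expression table of 28987 mouse genes. All 54 were in the table and all 54 reached at least 1 TPM (a share of all transcripts, corrected for length) in every library, so no member was lost to a filter on low values. RNA sequencing was done on mutant bone marrow cells of C57BL/6 mice with CBL and RUNX1 mutations. The groups were Ly6G+ myeloid cells from mice given Mdivi-1 (2 libraries), Ly6G+ cells with vehicle (2 libraries), stem and progenitor cells (HSCPs) with Mdivi-1 (1 library) and HSCPs with vehicle (1 library). Every group, vehicle included, carried the CBL and RUNX1 mutations. HSCPs were isolated by selection for CD117, the Kit receptor, followed by sorting of the mutant clone, and Ly6G+ mutant cells were sorted by flow cytometry. Marrow was taken from individual mice, but no label links a library to its mouse, and the p-values below therefore reflect the spread between libraries, which may be technical. The labels give neither the alleles, nor the age of the mice, nor the dose and length of treatment.

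Mdivi-1 is a compound in use as a blocker of Drp1, the product of Dnm1l, which cuts mitochondria during their fission. Entry into mitosis is driven by Cdk1 bound to cyclin A or cyclin B. Condensins and topoisomerase II then compact the chromosomes, kinesins and their partners build the spindle, and kinetochores attach chromosomes to it while the spindle checkpoint holds back anaphase. The anaphase-promoting complex (APC/C), a ubiquitin ligase, ends mitosis by marking cyclin B and securin for destruction. In the neutrophil lineage, divisions take place in the precursors, and mature neutrophils no longer divide. Transcripts of many such genes accumulate in G2 through promoter elements. These are the cell cycle genes homology region (CHR), a site of the DREAM and B-Myb complexes, and the CCAAT box, a site of NF-Y.

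The start regions of the members are shown first, because most of those searched share a motif beyond the function the list was chosen for. RefSeq windows on GRCm38.p6, from 250 bases before to 50 bases after an annotated start, were found for 47 of the 54 members, as 51 windows of 300 bases, since 4 members had 2 windows. Both strands were searched for a CHR element, taken as TTTGAA or TTCGAA, and for CCAAT. A CHR element lay in 39 of the 51 member windows, which is 76.5%, against 14.5% of the 11270 windows of genes tested and 19.2% of all 32851 windows. CCAAT lay in 40 member windows, which is 78.4%, against 38.1% of windows of genes tested and 37.4% of all windows. Both motifs lay in 34 member windows, which is 66.7%, against 6.13% and 7.52%. At least 2 CCAAT matches were found in 51% of member windows, against 14.6% and 11.7%.

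The position of the matches was recorded as well. Counted window by window, 36 of 52 CHR elements in member windows began within 50 bases of the start, in 31 members. Of the 1806 elements in windows of genes tested, counted alike, 24.7% did so. A site in both windows of Bub3, Ect2 or Prc1 was counted once for each window. A pair of CCAAT matches on the same strand, neighbouring or not, lay 31 to 33 bases apart in 8 member windows. This is 15.7%, against 1.51% of windows of genes tested and 0.794% of all windows. The members with a window but no CHR element by these letters were Ccnb1, Cks2, Nek2, Mad2l1, Cenpe, Nuf2, Birc5, Nusap1, Gtse1, Ncaph and Pttg1. Among them, Mad2l1, Nuf2, Birc5, Nusap1, Ncaph and Pttg1 held no CCAAT match either. These counts describe letters in a window and do not show that a factor was bound.

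**Figure D1:**
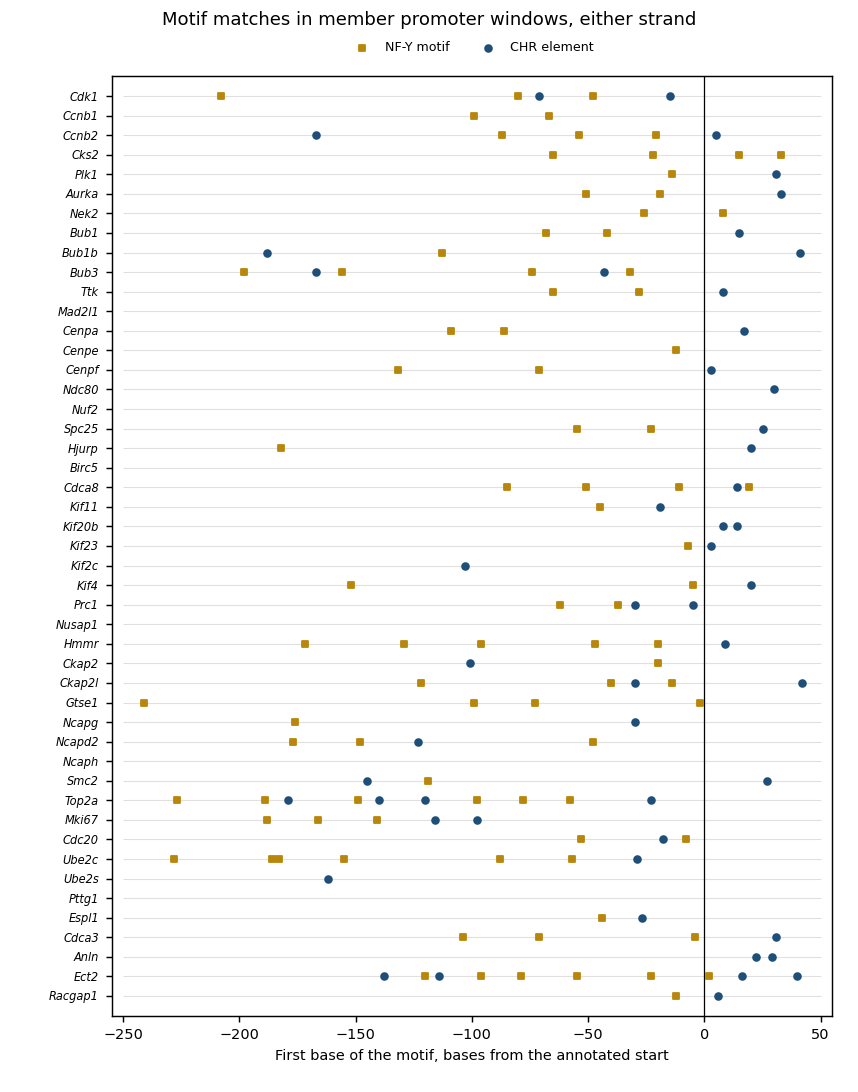
Positions of CHR elements (blue circles) and of CCAAT matches, the NF-Y motif (brown squares), on either strand in the windows of the 47 members with a RefSeq window. The horizontal axis gives the distance in bases from the annotated start, and members with 2 windows have the matches of both on one line. Counted window by window, 36 of 52 CHR elements lie within 50 bases of the start.

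Cdca2, which passed the treatment test in Ly6G+ cells, had no RefSeq window and was not searched. The 4 windows below belong to the members with the largest changes in that test that hold a CHR element. They run 5′ to 3′ on the strand of the gene, and capitals mark CHR elements (here always TTTGAA) and CCAAT, written as their reverse complements where they lie on the opposite strand. The windows are Cenpf at chr1:189688037-189688336 on the minus strand, Ube2c at chr2:164769679-164769978 on the plus strand, Cdc20 at chr4:118437294-118437593 on the minus strand and Ccnb2 at chr9:70421505-70421804 on the minus strand.
Cenpf: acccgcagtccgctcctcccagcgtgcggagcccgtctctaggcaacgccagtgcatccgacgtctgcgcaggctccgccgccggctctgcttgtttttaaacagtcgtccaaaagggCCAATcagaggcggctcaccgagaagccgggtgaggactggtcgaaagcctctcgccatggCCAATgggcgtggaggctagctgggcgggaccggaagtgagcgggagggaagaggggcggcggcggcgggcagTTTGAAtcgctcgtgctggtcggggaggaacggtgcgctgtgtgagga
Ube2c: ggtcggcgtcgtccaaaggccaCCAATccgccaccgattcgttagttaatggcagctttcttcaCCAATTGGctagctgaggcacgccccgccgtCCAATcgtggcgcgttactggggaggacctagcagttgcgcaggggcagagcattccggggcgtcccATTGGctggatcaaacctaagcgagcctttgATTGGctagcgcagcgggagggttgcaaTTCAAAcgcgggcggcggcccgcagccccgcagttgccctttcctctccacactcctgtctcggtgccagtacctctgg
Cdc20: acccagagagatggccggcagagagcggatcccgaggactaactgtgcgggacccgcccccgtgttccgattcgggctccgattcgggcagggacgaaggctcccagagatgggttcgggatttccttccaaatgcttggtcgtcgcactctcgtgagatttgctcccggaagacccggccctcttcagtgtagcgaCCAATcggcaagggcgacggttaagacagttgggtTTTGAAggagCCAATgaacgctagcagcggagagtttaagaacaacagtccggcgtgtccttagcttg
Ccnb2: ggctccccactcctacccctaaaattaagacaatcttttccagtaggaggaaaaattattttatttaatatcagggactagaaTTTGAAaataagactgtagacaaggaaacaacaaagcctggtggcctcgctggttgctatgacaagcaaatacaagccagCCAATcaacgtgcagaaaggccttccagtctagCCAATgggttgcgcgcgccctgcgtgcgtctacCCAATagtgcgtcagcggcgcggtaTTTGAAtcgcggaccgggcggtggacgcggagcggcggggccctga

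In Cenpf the CHR element began 3 bases after the start and in Ccnb2 5 bases after it, with another in Ccnb2 at position -167. In Cdc20 it began at position -18 and in Ube2c, on the opposite strand, at position -29. Ccnb2 held 3 CCAAT boxes spaced by 33 and 33 bases. Ube2c held 6 matches, among them a forward and a reverse match that overlap in CCAATTGG, and a spacing of 31 bases occurred once on each strand. Cdc20 and Cenpf each held 2 CCAAT boxes, spaced by 45 bases in Cdc20 and by 61 bases in Cenpf.

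The labelled populations were checked against their defining genes. Ly6g stood at 642 to 840 TPM in Ly6G+ libraries and at 90.2 and 187 TPM in HSCP libraries with Mdivi-1 and vehicle. Kit stood at 8.73 to 14.1 TPM in Ly6G+ libraries and at 64.9 and 72.2 TPM in HSCP libraries with Mdivi-1 and vehicle, so neither marker was at 0 in the other population. Dnm1l, the gene of the drug's described target, stood at 23.0 and 24.6 TPM in Mdivi-1 and at 24.3 and 23.1 TPM in vehicle Ly6G+ libraries, a difference within the spread (log2 difference 0.00466, limma adjusted p = 0.98). No read totals come with TPM, so the depth is unknown. Between 11456 and 11930 genes reached 1 TPM in a library.

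Together the 54 genes held 3528 and 3386 TPM in the Ly6G+ Mdivi-1 libraries, against 3711 and 3725 TPM in Ly6G+ vehicle. They held 5397 TPM in HSCP Mdivi-1 and 4820 TPM in HSCP vehicle. As a share of all TPM this was 0.361% and 0.346% in Ly6G+ Mdivi-1, 0.379% and 0.381% in Ly6G+ vehicle, 0.558% in HSCP Mdivi-1 and 0.5% in HSCP vehicle. The Ly6G+ libraries thus held a smaller share than the HSCP libraries, with no overlap. The median of all genes tested was lower in Ly6G+ libraries too (log2 difference -0.35, against -0.47 over the members). The part of this wider shift in the smaller share was not tested. In bulk samples, fewer cells of a dividing type and less RNA per cell cannot be told apart.

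Levels of single members spanned a wide range. By mean TPM over the 4 Ly6G+ libraries the most abundant were Cks2 (209.8 TPM), a small Cdk-binding protein, Top2a (206 TPM), the DNA topoisomerase that untangles sister chromatids, and Hjurp (195 TPM), the chaperone that deposits the centromeric histone. The least abundant were the separase gene Espl1 (12.1 TPM), the kinetochore gene Cenpf (12.4 TPM) and the cytokinesis gene Ect2 (12.8 TPM). In the mean of the 2 HSCP libraries Cdk1 (328 TPM) and the APC/C ubiquitin-conjugating enzyme gene Ube2s (328 TPM) stood highest, followed by Cks2 (312 TPM) and Top2a (298 TPM). Some values rest on sequence shared with other genes. The share of a gene's 31-base words found in no other gene was 68.3% for Cks2, 72.2% for Ccnb1, 73.3% for Cdc20 and for Kif20a, 75.3% for Ube2c, 81.3% for Plk1 and 84.3% for Kif4, and it was 87.5% or more for the rest, so the levels of these 7 are less certain.

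**Figure D2:**
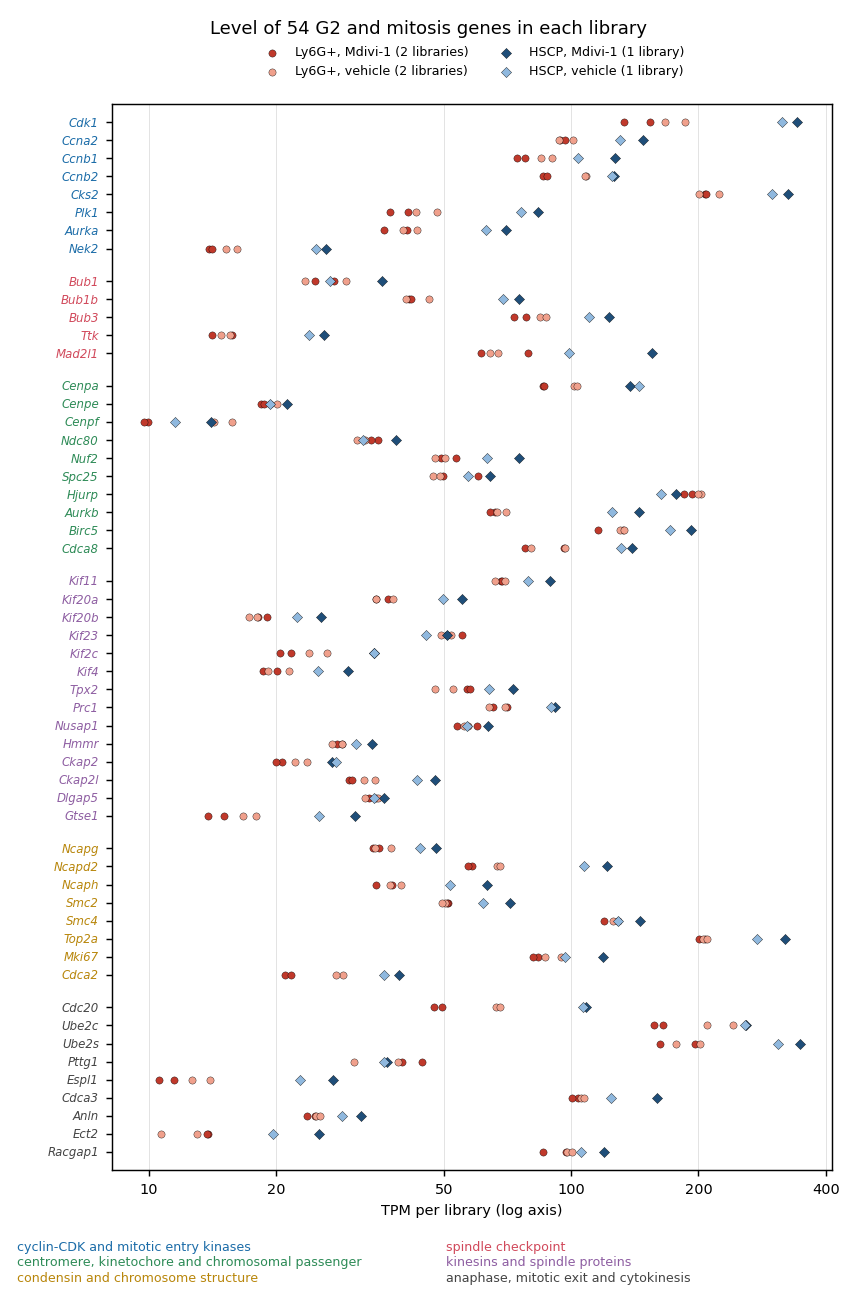
TPM of each of the 54 genes in each library, on a log axis, grouped by role. Each circle is a Ly6G+ library and each diamond an HSCP library, Mdivi-1 in the darker shade; most diamonds lie to the right of the circles, and Cdk1 stands at 342 and 315 TPM in HSCP Mdivi-1 and vehicle.

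In Ly6G+ cells, 5 of the 54 genes fell with Mdivi-1 and 0 rose: the kinetochore gene Cenpf, the APC/C partners Ube2c and Cdc20, the phosphatase-targeting gene Cdca2 and the cyclin gene Ccnb2. The test was limma on log2(TPM + 1) over all genes tested, with a Benjamini-Hochberg adjusted p under 0.05. Over all 11775 genes tested, 6.7% passed, 4.24% in the lower and 2.46% in the higher direction, and among the 6114 genes within the members' range of mean TPM 4.69% passed in the lower direction. The share of members that fell was 9.26%. On mm10, Cenpf lies on chromosome 1 from 189640606 to 189688086, Ube2c on chromosome 2 from 164769898 to 164778822, Cdc20 on chromosome 4 from 118432901 to 118437352, Ccnb2 on chromosome 9 from 70407692 to 70421547 and Cdca2 on chromosome 14 from 67676331 to 67715841. The other 49 members did not pass. The median log2 difference over members was -0.06, against -0.05 over all genes tested. Without Mdivi-1 replicate 1 these medians were -0.10 and -0.06, and without vehicle replicate 1 they were -0.11 and -0.06.

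Among the cyclins, Cdk1 and the entry kinases, 1 of 8 fell. Ccnb2, which encodes cyclin B2, a partner of Cdk1, stood at 85.6 and 87.8 TPM with Mdivi-1, against 108 and 108 TPM with vehicle. The groups did not overlap, and the log2 difference was -0.31 with an SE of 0.05 (limma adjusted p = 0.0389). Cdk1 itself stood at 153 and 133 TPM with Mdivi-1, against 186 and 166 TPM with vehicle, groups that were apart but whose difference of -0.30 did not pass (limma adjusted p = 0.137). Ccnb1, which encodes the main mitotic cyclin, stood at 74.4 and 77.6 TPM with Mdivi-1, against 89.9 and 84.5 TPM with vehicle (log2 difference -0.20, limma adjusted p = 0.139). Ccna2, which encodes cyclin A2, stood at 94.0 and 96.8 TPM with Mdivi-1, against 101 and 93.6 TPM with vehicle, and Cks2 at 207 and 208 TPM, against 224 and 200.3 TPM. The groups overlapped for both. All 8 of these genes had values below 0 on the TPM scale, from -0.03 for Cks2 to -0.31 for Ccnb2, with a median of -0.18. Cks2 and Ccna2 lay at 0.03 after median-of-ratios scaling. Groups were apart in the lower direction for 5 of the 8. Over all genes tested, 36.7% were apart in that direction and 40.7% lay above 0 on the TPM scale.

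Of the 5 spindle checkpoint genes, whose products delay anaphase until chromosomes are attached, 0 passed. Bub3 stood at 78.1 and 73.1 TPM with Mdivi-1, against 84.3 and 87.2 TPM with vehicle, with groups apart and a log2 difference of -0.18 (limma adjusted p = 0.162). Mad2l1 stood at 79.0 and 61.2 TPM with Mdivi-1, against 64.2 and 67.1 TPM with vehicle. Its Mdivi-1 libraries lay on both sides of the vehicle ones and differed by 0.364 on the log2 scale, the widest spread of any member within that arm. Bub1b stood at 41.3 and 41.8 TPM with Mdivi-1, against 40.7 and 46.2 TPM with vehicle. Bub1 stood at 27.4 and 24.7 TPM with Mdivi-1, against 23.4 and 29.3 TPM with vehicle. The median over the 5 genes was -0.03.

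Among 10 centromere, kinetochore and chromosomal passenger genes, 1 fell. Cenpf, a large protein that gathers at the kinetochore from G2 on, stood at 9.97 and 9.76 TPM with Mdivi-1, against 15.7 and 14.3 TPM with vehicle. It had the largest change of the 54, with a log2 difference of -0.56 and an SE of 0.09 (limma adjusted p = 0.0359). Cenpa, the centromeric histone, came next to the threshold in this group, with 85.8 and 86.0 TPM with Mdivi-1, against 102 and 103 TPM with vehicle (log2 difference -0.25, limma adjusted p = 0.0618). Hjurp, its chaperone, stood at 193 and 184 TPM with Mdivi-1, against 202 and 199 TPM with vehicle (log2 difference -0.09, limma adjusted p = 0.354). Birc5, the survivin subunit of the passenger complex, stood at 116 and 132 TPM with Mdivi-1, against 130.2 and 133 TPM with vehicle, with groups that overlapped. The outer kinetochore genes Ndc80, Nuf2 and Spc25 had values above 0, at 0.10, 0.07 and 0.19, and none of them passed (limma adjusted p = 0.390, 0.616 and 0.318).

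None of the 14 kinesin and spindle genes passed, and their median was 0.01. Tpx2, an activator of Aurora A on spindle microtubules, had the highest value of this group, with 56.6 and 57.5 TPM with Mdivi-1, against 47.5 and 52.4 TPM with vehicle (log2 difference 0.19, limma adjusted p = 0.187). It was also the one member with an unadjusted p under 0.05 in the higher direction. The microtubule bundler Prc1 stood at 70.6 and 65.2 TPM with Mdivi-1, against 63.8 and 69.8 TPM with vehicle. Kif11, the motor that pushes spindle poles apart, stood at 68.3 and 68.5 TPM with Mdivi-1, against 69.6 and 65.8 TPM with vehicle. Nusap1, a microtubule-binding protein, stood at 53.6 and 59.8 TPM with Mdivi-1, against 57 and 55.8 TPM with vehicle. The groups overlapped for these last 3 genes.

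Of the 8 condensin and chromosome genes, 1 fell. Cdca2, also known as Repo-Man, brings protein phosphatase 1 to chromatin as mitosis ends, and it stood at 21.0 and 21.7 TPM with Mdivi-1, against 28.8 and 27.7 TPM with vehicle. Its log2 difference was -0.39 with an SE of 0.07 (limma adjusted p = 0.0426). Top2a stood at 207 and 201 TPM with Mdivi-1, against 205 and 209.6 TPM with vehicle, and Smc4, a core condensin subunit, at 129 and 119 TPM, against 129 and 126 TPM. Mki67, the proliferation marker that coats mitotic chromosomes, stood at 83.4 and 80.9 TPM with Mdivi-1, against 86.8 and 94.6 TPM with vehicle (log2 difference -0.14, limma adjusted p = 0.268). Ncapd2, a condensin I subunit, stood at 58.2 and 57 TPM with Mdivi-1, against 66.8 and 67.7 TPM with vehicle (log2 difference -0.22, limma adjusted p = 0.0906).

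Of the 9 anaphase, exit and cytokinesis genes, 2 fell, and both work with the APC/C. Ube2c, the ubiquitin-conjugating enzyme that starts chains on APC/C substrates, stood at 165 and 157 TPM with Mdivi-1, against 242 and 209.7 TPM with vehicle (log2 difference -0.48, SE 0.08, limma adjusted p = 0.0408). Cdc20, the activator of the APC/C that the spindle checkpoint restrains, stood at 49.3 and 47.4 TPM with Mdivi-1, against 66.4 and 67.8 TPM with vehicle. Its log2 difference was -0.46 with an SE of 0.06, and its adjusted p of 0.0220 by limma was the smallest of the 54. Ube2s, which lengthens the chains, stood at 197 and 162 TPM with Mdivi-1, against 177 and 201 TPM with vehicle, with groups that overlapped. Cdca3 stood at 103.7 and 100.5 TPM with Mdivi-1, against 106 and 107 TPM with vehicle (log2 difference -0.06, limma adjusted p = 0.533). Pttg1, the securin that blocks separase, had the highest value of all members at 0.28, with 44.3 and 39.8 TPM with Mdivi-1, against 38.8 and 30.6 TPM with vehicle. It did not pass (limma adjusted p = 0.259), and its vehicle libraries differed by 0.334 on the log2 scale, the widest spread of any member within that arm.

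Over all 54 genes the treatment groups were apart in the lower direction for 24 members and in the higher direction for 7, where 36.7% and 21% of all genes tested were apart. Values lay below 0 for 39 members and above 0 for 15, where 40.7% of all genes tested lay above 0, and median-of-ratios scaling put 25 members above 0. An unadjusted p under 0.05 was found for 13 members, 12 of them lower, and for 25.7% of all genes tested. The typical difference between the libraries of an arm was 0.0626 for Mdivi-1 and 0.0844 for vehicle (median of the absolute log2 difference over members). The calls rested on all 4 libraries. With any library left out, 0 members passed (22 to 279 of all genes passed), and the adjusted p ranged from 0.119 to 0.179 for Ccnb2, from 0.0633 to 0.147 for Cdc20, from 0.118 to 0.174 for Cdca2, from 0.0977 to 0.158 for Cenpf and from 0.0903 to 0.144 for Ube2c, while all 5 values stayed below 0. After median-of-ratios scaling 2 members passed, Cdc20 and Cenpf, and the share of all calls that were higher was 50.5%, against 36.8% on the TPM scale.

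**Figure D3:**
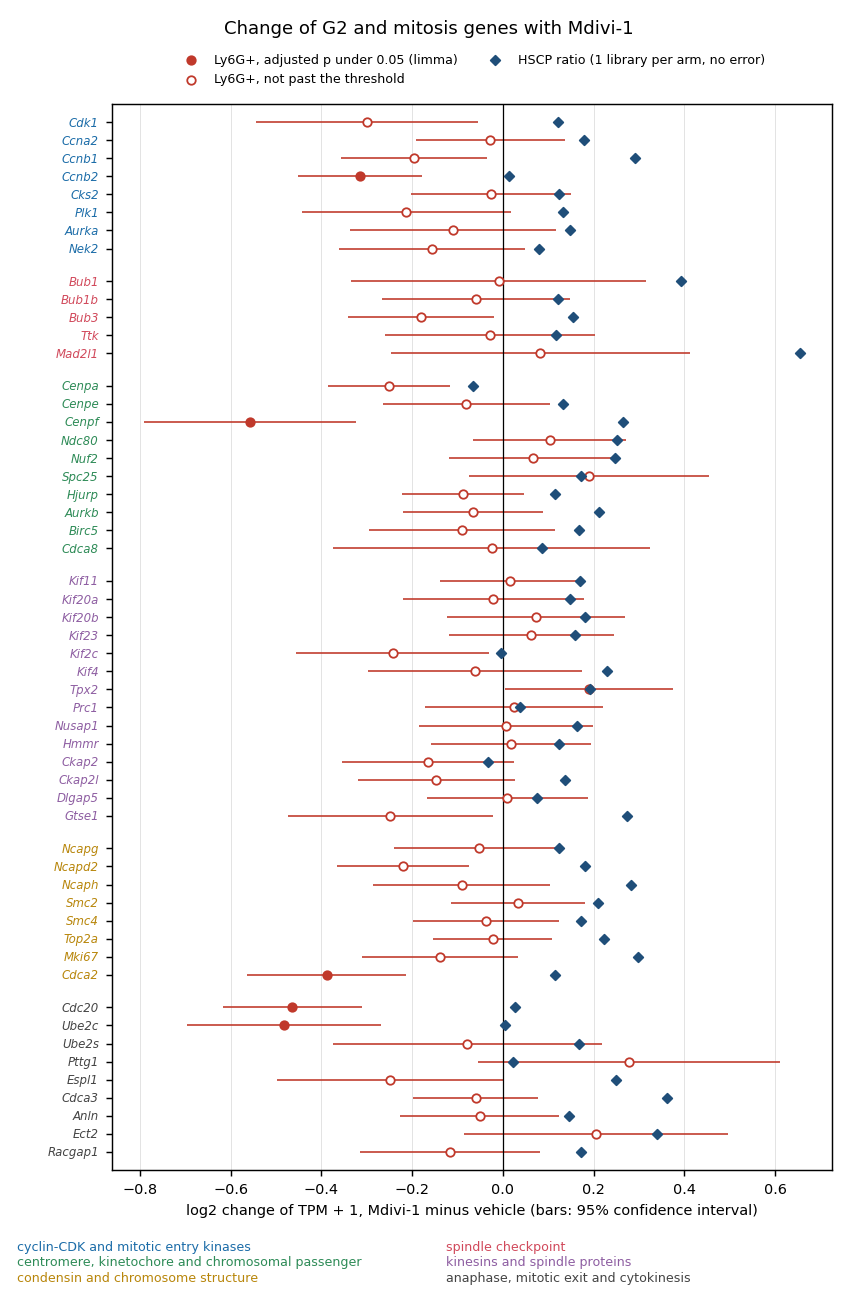
Change of each of the 54 genes with Mdivi-1, as the log2 difference of TPM + 1, Mdivi-1 minus vehicle, by role. Circles are Ly6G+ cells with 95% confidence intervals from limma, filled where the adjusted p is under 0.05 (5 genes, all below 0); diamonds are the ratio between the 2 HSCP libraries, which has no error estimate and lies above 0 for 51 genes.

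Cell type markers moved with the treatment in the same Ly6G+ libraries. Late neutrophil markers (Mmp8, Mmp9, Retnlg, Il1b, Cxcr2, Stfa2l1 and Wfdc17) rose for 6 of 7, and their summed level was 42850 and 42670 TPM with Mdivi-1, against 28560 and 28570 TPM with vehicle. Early B cell markers fell for 10 of 10, with sums of 28.2 and 29.2 TPM with Mdivi-1, against 158 and 159 TPM with vehicle. Megakaryocyte markers fell for 7 of 8, with sums of 119.5 and 103.7 TPM, against 263 and 261 TPM. Mast cell and basophil markers fell for 6 of 6, with sums of 166 and 175 TPM, against 496 and 504 TPM. Of the other lists, 4 of 7 secondary granule, 4 of 8 monocyte and dendritic, 3 of 10 erythroid, 2 of 7 primary granule and 2 of 7 stem cell markers fell, and 1 secondary granule marker rose. Without vehicle replicate 2, these falls passed for 0 of 6 early B cell, 0 of 8 megakaryocyte and 2 of 6 mast cell and basophil markers tested and the rise for 2 of 7 late neutrophil markers; without vehicle replicate 1 the counts were 1 of 6, 0 of 8, 2 of 6 and 3 of 7. Pf4, the platelet factor that marks megakaryocytes, was not at 0 in these libraries, with 55.2 and 45.9 TPM with Mdivi-1, against 109 and 105 TPM with vehicle. The part of these markers in the fall of the 5 mitotic genes was not tested.

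In HSCPs nearly all of these genes were slightly more abundant in the Mdivi-1 library. Of the 54, 51 had a log2 ratio of Mdivi-1 over vehicle above 0, beside 54.2% of the 12268 genes with at least 1 TPM in either HSCP library and 59.9% of the 6958 genes within the members' range of mean TPM. After median-of-ratios or upper-quartile scaling 49 or 46 of the 54 lay above 0. The median ratio was 0.16 over members and 0.02 over all genes. With 1 library in each arm there is no replicate error and no test. Almost all ratios were small: 1 member, Mad2l1, reached 0.5 on the log2 scale, as did 4.07% of all genes, and 0 members lay at or below -0.5, as did 6.29% of all genes.

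Mad2l1, the checkpoint protein that binds Cdc20, stood at 156 TPM in HSCP Mdivi-1 and 98.6 TPM in HSCP vehicle, a log2 ratio of 0.65. The checkpoint kinase gene Bub1 followed with 35.6 TPM in Mdivi-1 and 26.9 TPM in vehicle (log2 ratio 0.39). Cdca3 had 160 TPM in Mdivi-1 and 124 TPM in vehicle (log2 ratio 0.36), and Ect2, the exchange factor that starts the cleavage furrow, 25.2 and 19.7 TPM (log2 ratio 0.34). Mki67 stood at 119 TPM in Mdivi-1 and 96.7 TPM in vehicle (log2 ratio 0.30), and Top2a at 321 and 275 TPM (log2 ratio 0.22). The median ratio differed little between roles, from 0.13 for the cyclin and entry kinase genes to 0.20 for the condensin and chromosome genes. The 3 members below 0 were Cenpa at -0.07, Ckap2 at -0.03 and Kif2c at -0.01. The 5 genes that fell in Ly6G+ cells had HSCP ratios of 0.26 for Cenpf, 0.00 for Ube2c, 0.03 for Cdc20, 0.12 for Cdca2 and 0.01 for Ccnb2.

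Marker lists differed between the HSCP libraries as well. Megakaryocyte markers had ratios above 0 for 0 of 8, with a sum of 166 TPM in Mdivi-1 and 334 TPM in vehicle, and early B cell markers for 1 of 10, with 64.9 TPM in Mdivi-1 and 100.3 TPM in vehicle. Mast cell and basophil markers had ratios above 0 for 0 of 6, with 197 TPM in Mdivi-1 and 265 TPM in vehicle, and late neutrophil markers for 3 of 7, with 2018 TPM in Mdivi-1 and 2536 TPM in vehicle. Monocyte and dendritic markers were above 0 for 2 of 8, with 1512 TPM in Mdivi-1 and 2075 TPM in vehicle, and stem and multipotent progenitor markers for 2 of 8, with 363 TPM in Mdivi-1 and 427 TPM in vehicle. Primary granule markers of early neutrophil precursors were above 0 for 5 of 7, with 16060 TPM in Mdivi-1 and 14970 TPM in vehicle, and erythroid markers for 6 of 10, with 3858 TPM in Mdivi-1 and 3716 TPM in vehicle. Secondary granule markers were above 0 for 2 of 7, with 26580 TPM in Mdivi-1 and 27300 TPM in vehicle. Ly6g stood at 90.2 TPM in Mdivi-1 and 187 TPM in vehicle. S phase genes, such as the replication helicase gene Mcm7 with 287 TPM in Mdivi-1 and 252 TPM in vehicle, had ratios above 0 for 29 of 30. The part of these markers in the ratios of the mitotic genes was not tested.

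Whether the treatment change differed between populations was tested by the interaction term, the change in Ly6G+ minus the change in HSCP, with the spread taken from the Ly6G+ libraries. It was called for 0 of the 54 members and 0% of 12338 genes tested by limma, and an unadjusted p under 0.05 was found for 15 members and for 11.3% of all genes. The median over members was -0.22, against -0.08 over all genes. The smallest adjusted p among members was 0.239 by limma, for Cenpf, with a difference of -0.82. With 1 library in each HSCP arm and no gene past the threshold, this test does not tell whether the response of these genes differed or was alike. Over the 54 genes the Ly6G+ difference and the HSCP ratio, which share no library, had a Pearson's r of 0.27 and a Spearman's rho of 0.26. These are given as a description, since genes are not independent replicates. Both below 0 in Ly6G+ and above 0 in HSCP were 36 members. With 39 members below 0 in Ly6G+ and 51 above 0 in HSCP, this is the fewest possible.

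**Figure D4:**
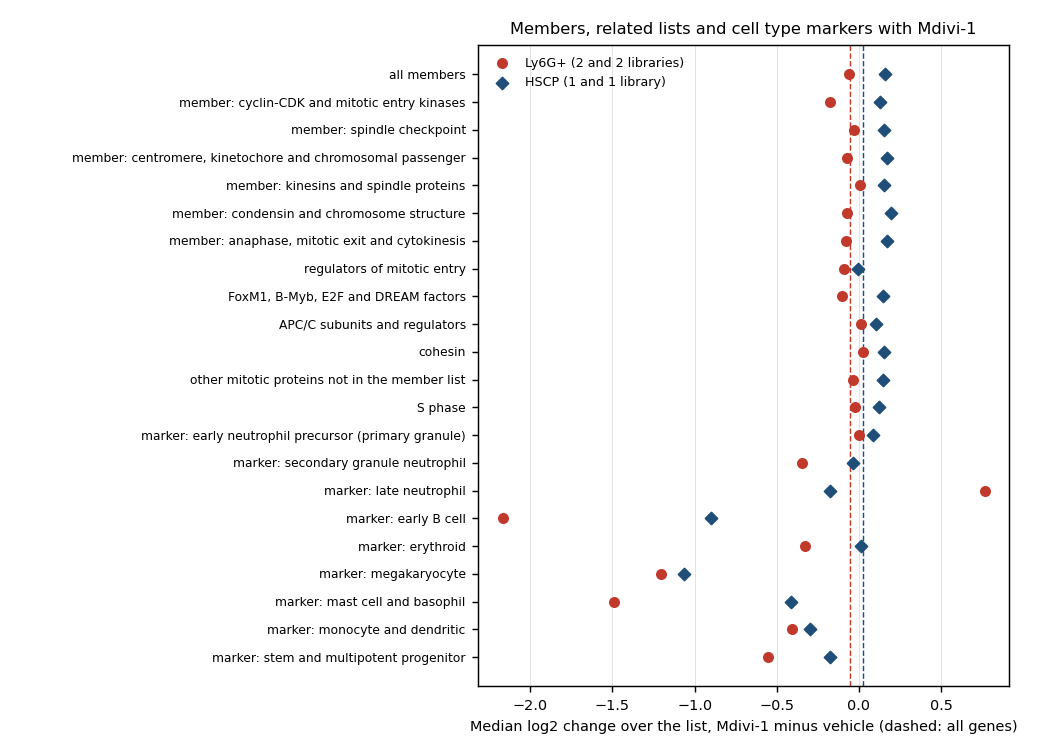
Median log2 change with Mdivi-1 over the mitotic genes, their role groups, related pathway lists and cell type markers, in Ly6G+ cells (circles, 2 and 2 libraries) and HSCPs (diamonds, 1 and 1 library, no error). Dashed lines mark the median of all genes, -0.05 in Ly6G+ and 0.02 in HSCP; the mitotic lists lie within 0.2 of zero, while early B cell markers lie at -2.17 in Ly6G+ and -0.90 in HSCP.

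Between populations, 44 of the 54 genes were lower in Ly6G+ cells than in HSCPs and 1 was higher, by limma with treatment as a covariate. Over all 12338 genes tested, 72.4% passed, 50.3% lower and 22.2% higher, so most genes differed and the median over all genes was -0.35. The median over the members was -0.47, which is -0.13 relative to that of all genes. This distance was -0.26 without the HSCP vehicle library and -0.07 without the HSCP Mdivi-1 library. The groups were apart in the lower direction for 43 members and in the higher direction for 1, where 52.5% and 23.5% of all genes were apart. Median-of-ratios scaling moved the median of all genes to -0.01, and then 15 members were lower and 9 were higher. Of all 12338 genes tested, 4128 were then lower and 4222 higher, so in both directions members passed less often than genes in general. Of all calls, 50.6% were then in the higher direction, against 30.6% on the TPM scale. Calls between populations are therefore given on both scales. Neutrophil markers differed in the same libraries: late neutrophil markers were higher in Ly6G+ cells for 7 of 7, with sums of 28560 to 42850 TPM against 2018 and 2536 TPM in HSCP Mdivi-1 and vehicle. Primary granule markers of early precursors were lower for 5 of 7, with sums of 2316 to 2528 TPM in Ly6G+ libraries, against 16060 and 14970 TPM in HSCP Mdivi-1 and vehicle. Their part in the difference of the mitotic genes was not tested.

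The 15 genes that were lower on both scales came from several roles. Cdk1 had the largest difference, with 153 and 133 TPM in Mdivi-1 and 186 and 166 TPM in vehicle Ly6G+ libraries, against 342 and 315 TPM in HSCP Mdivi-1 and vehicle. Its log2 difference was -1.04 with an SE of 0.12 (limma adjusted p = 0.000275), and -0.65 after scaling (limma adjusted p = 0.00163). Aurkb, the kinase of the passenger complex, stood at 64.3 to 69.9 TPM in Ly6G+ libraries, against 144 and 125 TPM in HSCP Mdivi-1 and vehicle, with a log2 difference of -0.998 and of -0.61 after scaling (limma adjusted p = 6.7e-05 and 0.000318). Espl1, the protease that cuts cohesin at anaphase, had 10.5 to 13.9 TPM in Ly6G+ libraries, against 27.3 and 22.8 TPM in HSCP libraries, with a log2 difference of -0.99 and of -0.62 after scaling. The others were the entry kinases Plk1, Aurka and Nek2, the checkpoint genes Bub1b, Ttk and Mad2l1, and Cenpa, Gtse1, Ncapd2, Cdc20, Ube2s and Ect2. Their log2 differences ran from -0.58 for Cenpa to -0.90 for Plk1 on the TPM scale.

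Hjurp was the one member higher in Ly6G+ cells on both scales. It stood at 193 and 184 TPM with Mdivi-1 and 202 and 199 TPM with vehicle in Ly6G+ cells, against 177 and 163 TPM in HSCP Mdivi-1 and vehicle. The log2 difference was 0.19 with an SE of 0.07 (limma adjusted p = 0.0372), and 0.58 after scaling (limma adjusted p = 0.000186). On the TPM scale it no longer passed without Ly6G+ Mdivi-1 replicate 1, without either Ly6G+ vehicle library or without the HSCP vehicle library (limma adjusted p = 0.0829, 0.0982, 0.0844 and 0.267), and 0 members were then higher. Without the HSCP Mdivi-1 library 2 members were higher, Hjurp and Cenpf. After scaling the other 8 that were higher were Cenpe, Ndc80, Kif23, Nusap1, Hmmr, Dlgap5, Smc4 and Pttg1, genes of the kinetochore, the spindle, condensin and securin. Hmmr, a spindle-associated protein, was lower on the TPM scale at -0.20 (limma adjusted p = 0.0364) and higher after scaling at 0.18 (limma adjusted p = 0.0341), so its direction depends on the scale. Cenpf, which fell with Mdivi-1 in Ly6G+ cells, did not pass between populations with all 6 libraries (log2 difference -0.06, limma adjusted p = 0.783). That value averages opposite differences: without the HSCP Mdivi-1 library Cenpf was higher in Ly6G+ cells, at 0.35 (limma adjusted p = 0.0444), and without the HSCP vehicle library it was lower, at -0.47 (limma adjusted p = 0.0155).

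The role groups lay at different distances from the median gene. Relative to the median of all genes on the TPM scale, the median of the cyclin and entry kinase genes was -0.30. All 8 passed as lower in Ly6G+ cells on that scale, and 4 (Cdk1, Plk1, Aurka and Nek2) after median-of-ratios scaling. The median of the 5 checkpoint genes was -0.35, with 4 lower on the TPM scale and 3 after scaling. The 10 centromere, kinetochore and passenger genes lay at 0.00, with 6 lower and 1 higher on the TPM scale, but 2 lower and 3 higher after scaling. The 14 kinesin and spindle genes lay at -0.02, with 11 lower and 0 higher on the TPM scale, but 1 lower and 4 higher after scaling. For these 2 groups the balance of calls turned with the scale, as it did over all 12338 genes tested. There 6202 were lower and 2736 higher on the TPM scale, and 4128 lower and 4222 higher after scaling. The condensin and chromosome genes lay at -0.11, with 7 of 8 lower on the TPM scale, and 1 lower and 1 higher after scaling. The anaphase, exit and cytokinesis genes lay at -0.09, with 8 of 9 lower on the TPM scale, and 4 lower and 1 higher after scaling. These differences between role groups were not tested.

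**Figure D5:**
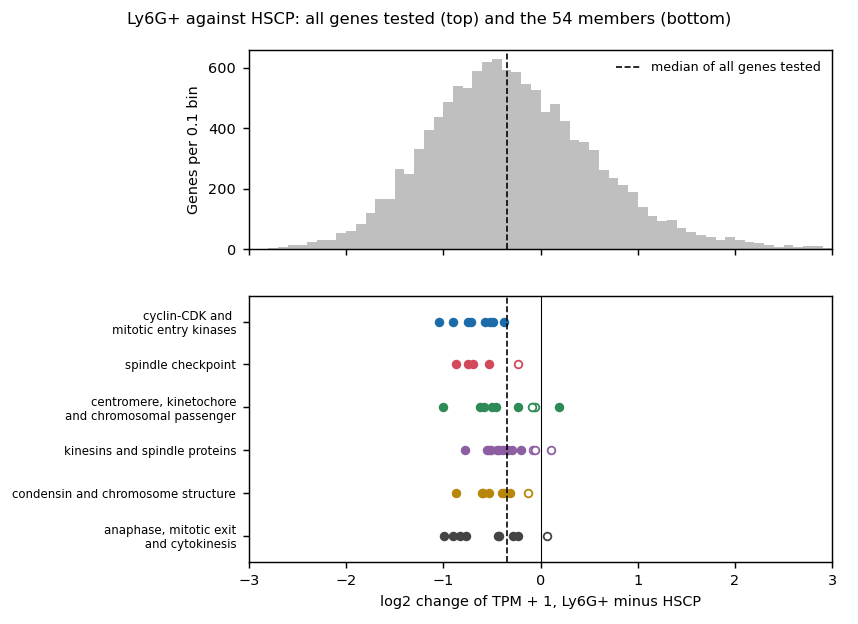
Difference between Ly6G+ cells and HSCPs as the log2 difference of TPM + 1, Ly6G+ minus HSCP. The top panel is a histogram of all 12338 genes tested with their median at -0.35 (dashed), and the bottom panel shows each of the 54 genes by role, filled where the limma adjusted p is under 0.05; Cdk1 lies lowest at -1.04 and Hjurp highest at 0.19.

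Genes of the same pathway outside the list were counted in the same tests. Among 15 regulators of mitotic entry, 2 fell with Mdivi-1 in Ly6G+ cells and 0 rose, where 4.24% of all genes tested fell. Pkmyt1, a kinase that holds Cdk1 inactive, stood at 19.4 and 18.7 TPM with Mdivi-1, against 25.7 and 26.8 TPM with vehicle (log2 difference -0.44, limma adjusted p = 0.0355). Cdc25a, a phosphatase that activates Cdks, stood at 34.5 and 33.8 TPM with Mdivi-1, against 43.9 and 45.4 TPM with vehicle (log2 difference -0.38, limma adjusted p = 0.0358). A kinase that restrains Cdk1 and a phosphatase that releases it were thus both lower.

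Of 17 FoxM1, B-Myb, E2F and DREAM factors, a set of transcription factors and their partners that control cell cycle genes, 1 fell: E2f8, an E2F that represses, with 42.2 and 41.6 TPM with Mdivi-1, against 52.4 and 54.1 TPM with vehicle (log2 difference -0.34, limma adjusted p = 0.0425). Foxm1, an activator of G2 genes, did not pass (log2 difference -0.12, limma adjusted p = 0.311). Of 17 APC/C subunits and regulators, 1 fell: Fzr1, the other APC/C activator, also called Cdh1, with 44.6 and 42.1 TPM with Mdivi-1, against 57.7 and 56.7 TPM with vehicle (log2 difference -0.39, limma adjusted p = 0.0355). Cdc20, the other activator, fell as well, but 4.24% of all genes tested fell, beside 1 of 17 in each of these lists. Over the 17 APC/C genes the median was 0.01, with groups apart in the higher direction for 7 and in the lower direction for 4. Over all genes tested, 21% were apart in the higher direction and 36.7% in the lower. With any of the 4 libraries left out, Pkmyt1, Cdc25a, E2f8 and Fzr1 no longer passed (limma adjusted p between 0.0763 and 0.195), and E2f8 missed the threshold once scaled by median of ratios (limma adjusted p = 0.0561). None of 15 cohesin genes, 51 other mitotic genes tested of 52 listed, and 30 S phase genes passed, with medians of 0.02, -0.04 and -0.02. With no filter on low values, a plain prior or a replicate block, 0 of the entry regulators, E2F and DREAM factors and APC/C genes passed.

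Between populations, 30 of 30 S phase genes were lower in Ly6G+ cells on the TPM scale, where 50.3% of all genes were lower, and 30 of 30 after median-of-ratios scaling. Their median was -1.18 on the TPM scale and -0.79 after scaling. Pcna, the replication clamp, stood at 192.7 to 207 TPM in Ly6G+ libraries, against 443 and 413 TPM in HSCP Mdivi-1 and vehicle. Of the 51 other mitotic genes, 46 were lower and 1 higher on the TPM scale, and 25 were lower and 2 higher after scaling. Of the 17 E2F and DREAM factors, 13 were lower and 4 higher on the TPM scale, and 7 and 4 after scaling. Of the 17 APC/C genes, 12 were lower and 0 higher on the TPM scale, and 8 and 4 after scaling. Of the 15 cohesin genes, 10 were lower and 5 higher on the TPM scale, and 4 and 6 after scaling. Of the 15 entry regulators, 9 were lower and 2 higher on the TPM scale, and 5 and 5 after scaling. Beside these counts, all 12338 genes tested held 6202 lower and 2736 higher on the TPM scale, and 4128 and 4222 after scaling. The median of the 54 genes on the TPM scale, -0.47, lay nearer to that of all genes than the S phase median did; this difference between lists was not tested. In HSCPs the share above 0 was 45 of 51 for the other mitotic genes, 13 of 15 for cohesin, 13 of 17 for the APC/C, 12 of 17 for the E2F and DREAM factors and 6 of 15 for the entry regulators.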

How the data were processed

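RNA was sequenced from 6 libraries of sorted mutant bone marrow cells. The authors deposited a gene table in TPM, made per the submitters' processing notes with bcl2fastq, CASAVA 1.8 and kallisto on mm10. No source used here states the kallisto version, the annotation or the strand, so a gene and an overlapping antisense gene cannot be told apart. The table's name speaks of counts, but its values are fractional; column sums lie between 963243 and 979168, and TPM was taken as the unit. TPM keeps no read totals, so no counting intervals are given.

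Identifiers were matched to GENCODE M21 on the same assembly (27458 of 28987 with a symbol). Genes with 1 TPM or more in 2 or more libraries of a comparison entered the tests, made on log2(TPM + 1) by limma 3.58.1 (R 4.3.3, trended and robust prior) with Benjamini-Hochberg adjustment over all of them and a threshold of 0.05. Fold changes on this scale understate those of low genes. The Ly6G+ treatment test used 4 libraries, the population test 6 with treatment as covariate, and the interaction 6 in 4 groups. The HSCP ratio is untested. The fits were also run on simulated data, with independent normal noise per gene drawn from the fit's own variances. Such data hold no effects shared by the genes of a library, so these were not tested. Unique 31-base words were counted in the M21 transcripts, and promoter windows came from RefSeq.

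The members and all lists were chosen with earlier results of these data known. In each role group, values by library are given for up to 4 members, first those past the treatment threshold by size of change and then the most abundant, and for any member called against the majority; up to 3 genes per related list follow the same order. Other members with values were picked after these were seen. Alternatives tried were the scaling (median-of-ratios, upper quartile), the pseudocount (0.1, 0.5), the filter (none, 5 TPM), a plain prior, each library left out, a replicate block, all libraries in one fit and single treatments.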

Additional observations from a re-analysis of the deposited data

How the results depend on the processing

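In Ly6G+ cells, the number of genes changed by Mdivi-1 (789) was 218 with no filter on low values, 346 with a plain prior and 325 with a replicate block, and between 22 and 279 with a library left out. The 5 members lower were 2 after median-of-ratios scaling, 3 after upper-quartile scaling, 0 with no filter, 0 with a plain prior, 1 (Ube2c) with a replicate block and between 0 and 0 with a library left out. Same-numbered libraries did not deviate together (r = -0.0306 over 11775 genes), so the numbers are not shown to pair mice. The 5 members kept their direction under all 13 alternatives.

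Between populations, the median over members was -0.47 with all 6 libraries, against -0.35 over all genes. It was -0.35 against -0.29 with vehicle libraries only, and -0.63 against -0.37 with Mdivi-1 libraries only. The 44 members lower became 40 with no filter or a plain prior, and between 40 and 43 with a Ly6G+ library left out. They became 15 after median-of-ratios and 29 after upper-quartile scaling. The 1 member higher became 9 and 3 under these scalings, 0 with no filter, 0 with a plain prior, 0 with Mdivi-1 libraries only, and between 0 and 2 with a library left out. Median-of-ratios scaling reversed Ccnb2 (0.018), Mki67 (0.077), Kif11 (0.091), Ncapg (0.012), Ckap2 (0.045), Racgap1 (0.15), Anln (0.10), Hmmr (0.18), Tpx2 (0.039) and Spc25 (0.15), and upper-quartile scaling reversed Hmmr (0.018); the scaling itself moves every gene by the same amount on the log scale of TPM.

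The interaction was called for 1 gene with a pseudocount of 0.1, 1 with 0.5, 6 at 5 TPM or more, and between 0 and 2 with a library left out, with 0 members in each. The HSCP count of genes at a log2 ratio of 0.5 or more in size, 1271, was 598 at 5 TPM or more. The median of all genes changed sign under median-of-ratios scaling for the Ly6G+ treatment (0.00035) and the interaction (0.018), and under upper-quartile scaling in HSCP (-0.013). Other causes were not tested. Depth is unknown, and 1 library in each HSCP arm limits every statement on HSCPs.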
